A study of Mus musculus with 5 samples.

Results

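Among cells sorted from the lateral ventricle wall of adult mice, 53 of 240 held at least 5 reads of Emx1 and formed the Emx1-positive set, a share of 22.1% (exact Clopper-Pearson 95% interval 17.0 to 27.9). They were compared with the 178 cells that held 0 Emx1 reads, and the 9 cells with 1 to 4 reads entered neither set. All of these cells came from 1 sample of FoxJ1CreERT2 R26TdT mice, 3 months old, in which the Foxj1 promoter drives a drug-inducible Cre that turns on a tdTomato reporter, so both sets hold cells in which that promoter had been active. The Foxj1 line samples of the study pooled 10 animals, 5 females and 5 males, and no label ties a well to an animal. Fluorescent cells went 1 by 1 into the wells of 96-well plates and were sequenced with the full-length Smart-seq2 method. The whole series held 1473 cells of 5 samples, the other 4 from the third ventricle, the midbrain (in 2 Cre lines) and the spinal cord. Emx1 on chr6:85187438-85204462 (GRCm38, as are all coordinates here) was the measure by which cells were chosen: the sets were selected on its raw read count alone, so its own values are a description.

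Emx1 encodes a homeodomain transcription factor of the embryonic dorsal telencephalon, the pallium, from which the cortex arises. The lateral ventricle is bordered by walls that descend from the pallium, from the subpallium on the striatal side and from the septum. Each wall is lined by multiciliated ependymal cells, which move the cerebrospinal fluid, and neural stem cells next to them carry different patterning factors in different walls. Emx1 reads in an adult cell show transcription at that time and do not trace its lineage.

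The Emx1-positive cells held between 7 and 368 Emx1 reads, with a median of 75, or 16.5 to 426 CPM (counts scaled so that each sum over genes is the same) with a median of 114. The cells just inside the threshold held 7, 13 and 14 reads. The highest counts outside it were 4 reads in each of 2 cells, the other 7 intermediate cells held 1 read, and no cell held 2 or 3. Few cells therefore lie near the boundary between the sets. The 3 blocks of 96 wells held 15, 20 and 18 positive and 65, 58 and 55 negative cells.

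**Figure D1:**
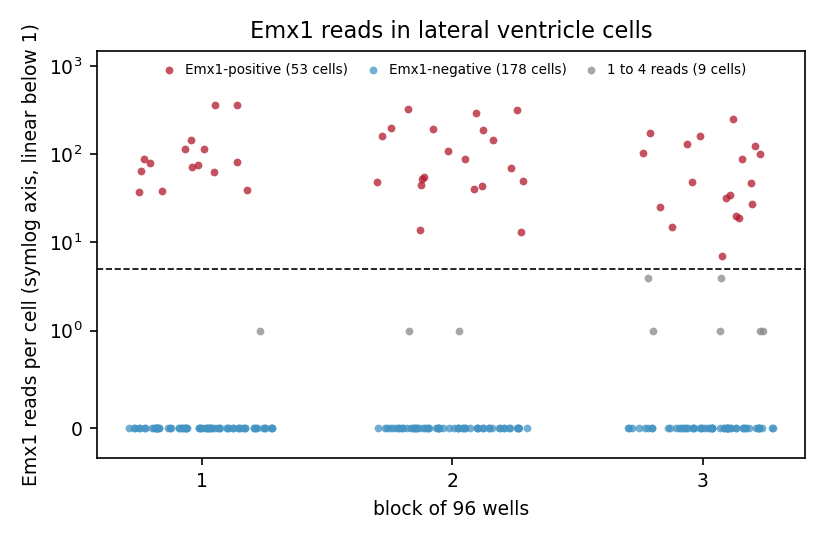
Emx1 reads per cell (symlog axis, linear below 1) in the 3 blocks of 96 wells, with 1 point per cell and a dashed line at 5 reads. The 53 Emx1-positive cells lie between 7 and 368 reads in all 3 blocks, and the 9 intermediate cells lie at 1 or 4.

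Both sets carried the ependymal markers at nearly the same level. Foxj1, the master regulator of motile cilia, stood at 503 CPM in the positive and 490 CPM in the negative cells and was read in 100% of both. Tmem212 stood at 3668 and 3545 CPM, and Rarres2 at 1935 and 1992 CPM. Of 42 motile cilium genes that met the minimum level, 0 differed by 2-fold, beside 3.75% of all genes higher and 4.82% lower. Calls were rarer at higher levels, with 0.725% higher and 0.936% lower at a minimum of 50 CPM and 20% of cells. The cilium list summed to 27789 and 27130 CPM. The median log2 ratio of the 43 with at least 5 CPM was 0.02. Sox9, a glial and ependymal transcription factor, stood at 1380 and 1526 CPM, and the nuclear factor I gene Nfia at 325 and 364 CPM. By these markers both sets were ependymal, and they are called by their Emx1 reads here rather than by a wall of origin.

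Markers of other cell types had similar sums in the sets. The neuronal marker Rbfox3, the oligodendrocyte genes Mog and Sox10 and the microglial genes Cx3cr1 and C1qa had 0 reads in both. The 8 neuron markers in the table summed to 136 CPM in positive and 129 CPM in negative cells, with 0 to 522 and 0 to 660 CPM per cell. Most of this was Map2, at 128 and 112 CPM, so the sums say little of the other neuron markers. The 10 oligodendrocyte lineage markers summed to 78.3 and 90.1 CPM (0 to 578 and 0 to 1083 per cell), and the 5 microglia markers to 8.91 and 8.41 CPM (0 to 160 and 0 to 301 per cell). The 3 endothelial and mural markers summed to 16.4 and 15.6 CPM (0 to 208 and 0 to 248 per cell). The 4 choroid plexus markers summed to 539 and 441 CPM, mostly Folr1, and Ttr, the most abundant transcript of choroid plexus, stood at 6.41 and 10.5 CPM. Of the 3 with at least 5 CPM, 2 were higher and 1 lower in every block. Clic6, also on that list, had a log2 ratio of 0.83 and is named below for its higher share of cells. Of the neuron markers, the neurofilament gene Nefl passed 2-fold and was lower in the positive cells, at 0.221 against 11.8 CPM, with reads in 1 of 53 and 19 of 178 cells. Of the tested neuroblast (2), smooth muscle (4), oligodendrocyte lineage (2), choroid plexus (3), endothelial and mural (1) and sex-linked (3) genes, 0 passed 2-fold, and 0 microglia markers met the minimum level for the call. Of all tested genes 3.75% were higher and 4.82% lower, so 0 calls in lists this short lie near those shares.

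Depth was alike too. Positive cells had a median of 708193 reads (170749 to 1613944) and 5261 genes, and negative cells a median of 725575.5 reads (121536 to 1938714) and 5472.5 genes. Summed over each set, the counts reached 40736431 and 134650127 reads. With 1 sample and no plate or animal labels there is no replicate of the comparison, so no p-value is given. Intervals below are exact Poisson 95% intervals of the summed counts and cover counting error only, since Smart-seq2 reads are not independent molecules. The spread between the 3 blocks of wells is given beside them.

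Sex-linked transcripts differed between the sets. Y-linked reads without Xist were found in 21 of 53 positive cells (39.6%) and 46 of 178 negative cells (25.8%), and Xist reads alone in 17 (32.1%) and 59 (33.1%). Blocks differed as well, with Xist-only cells making up 48.1% of block 1, 2.50% of block 2 and 48.1% of block 3. Smooth muscle actin Acta2 reached 100 CPM in 62.3% of positive and 56.7% of negative cells. The part of animal, sex or Acta2 in the gene differences was not tested, and values within these strata are given where they change a direction.

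Across the transcriptome the sets were close. Over 11796 genes with at least 5 CPM in either set, Pearson's r of log2(CPM + 1) was 0.931, a description across genes that are not independent, and the median log2 ratio of positive over negative cells was -0.02. A gene was called when its summed CPM differed by at least 2-fold, with at least 10 CPM and reads in at least 10% of cells in the higher set. Of 9891 genes that met this minimum, 371 (3.75%) were higher and 477 (4.82%) lower in Emx1-positive cells. Of these, 126 (1.27%) were also at least 1.5-fold higher in every block and 196 (1.98%) at least 1.5-fold lower in every block. The counts depended on the minimum level: at 50 CPM and 20% of cells, 31 of 4273 genes (0.725%) were higher and 40 (0.936%) lower. In the set where they were higher, 91.6% of the genes called higher and 91.6% of those called lower stood under 50 CPM, and 93.5% and 96.2% were read in fewer than 50% of cells.

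**Figure D2:**
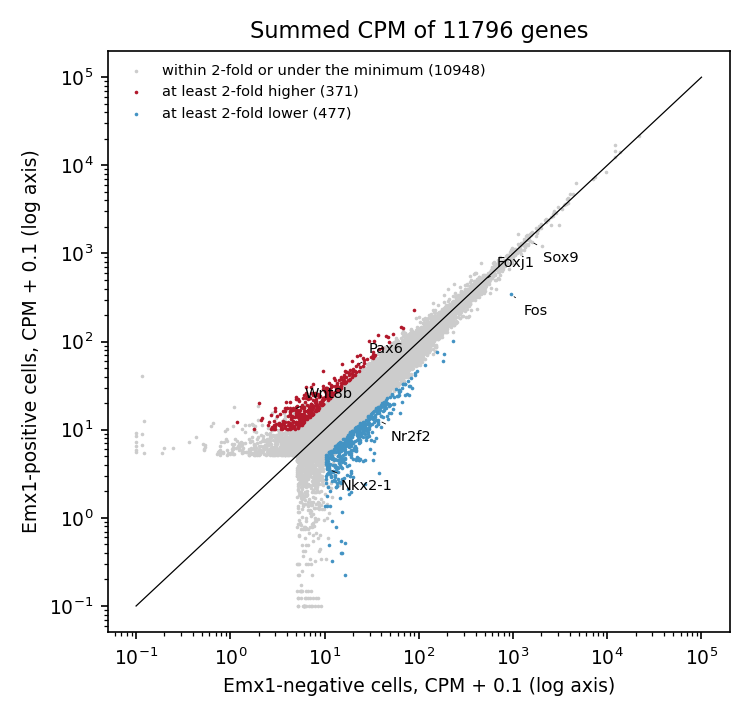
Summed CPM plus 0.1 of 11796 genes in Emx1-negative cells (horizontal, log axis) and Emx1-positive cells (vertical, log axis), with 1 point per gene and a line of equality. The 371 genes called higher (red) and 477 called lower (blue) lie mostly at low levels, while Foxj1 and Sox9 lie on the line.

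Pallial patterning factors lay on both sides, with more of them higher than lower in summed level but not in every block. Of 28 listed factors, 20 were in the table, and 14 met the minimum. Of those 14, 4 were called higher, among them Pax6, Lhx2 and Hopx, and 2 lower (Fezf1 and Nr2f2), against 3.75% and 4.82% of all genes. Of the 16 members with at least 5 CPM, 10 had a log2 ratio above 0 and 6 below, beside 48.2% of all genes above 0. Their median log2 ratio was 0.21, with -0.19, 0.59 and 0.11 in blocks 1 to 3, beside -0.02 for all genes. In every block 3 members were above 0 and 3 below, beside 12.2% and 15.2% of all genes. The median was -0.42 without the cells that reached 100 CPM of Acta2. It was -0.12 without block 2 and -0.064 without the highest cell of each gene in each set.

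Pax6 was the factor with the clearest contrast. It encodes a paired-box factor of pallial radial glia, on chr2:105668900-105697364. Its level was 53.4 CPM (51.2 to 55.7) in positive and 21.5 CPM (20.7 to 22.2) in negative cells, 2.49-fold higher. Reads were found in 27 of 53 positive cells (50.9%, 36.8 to 64.9) and 45 of 178 negative cells (25.3%). Per cell it ran from 0 through a median of 2.59 to 380 CPM in positive cells, and from 0 through a median of 0 to 285 CPM in negative cells, so the sets overlapped widely. By block, 10 of 15, 8 of 20 and 9 of 18 positive cells had a read, against 19 of 65, 7 of 58 and 19 of 55 negative cells. The log2 ratio was positive in all 3 blocks, at 1.25, 2.95 and 1.21. It stayed between 0.82 and 2.95 over 21 alternative treatments of the data, and was 2.63 in cells with Y-linked reads and 1.05 in cells with Xist reads. Of the 9 intermediate cells, 4 had a Pax6 read.

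Lhx2 and Hopx rested on fewer cells or blocks than Pax6. Lhx2, a LIM-homeodomain selector of cortical fate on chr2:38339281-38369733, stood at 17.6 CPM (16.4 to 19.0) against 5.87 CPM (5.47 to 6.30), with reads in 10 and 19 cells. Its direction held in each block but turned to a log2 ratio of -5.07 without the cells at 100 CPM of Acta2. Hopx, a homeodomain-only protein of radial glia and quiescent stem cells, stood at 57.8 against 26.0 CPM, yet its share of cells was nearly equal (39.6% and 34.8%), and its log2 ratio in block 3 was -0.091. Pax6 and Lhx2 were read in the same cell in 5 of 53 positive and 2 of 178 negative cells, and Pax6 with Hopx in 15 and 22. Pax6 with Dmrt3 was read in 8 and 11 cells, and with Six3, of the subpallial and septal list, in 9 and 21. Pax6 alone was read in a larger share of positive cells (27 of 53 against 45 of 178). Overlap beyond what the single counts would give was not tested.

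Several factors of the pallial programme differed by less than 2-fold in summed level. Emx2, the close relative of Emx1, stood at 7.49 CPM (6.67 to 8.38) against 7.05 CPM (6.61 to 7.51). It was read in 11 of 53 and 18 of 178 cells, and its log2 ratio was -5.36, 2.56 and 2.19 by block. The nuclear receptor gene Nr2f1 stood at 25.8 and 25.9 CPM. Dmrt3, a doublesex-related factor of the medial pallium, stood at 27.3 and 21.6 CPM. Lmo4, a LIM-only cofactor read in nearly every cell, stood at 450 and 327 CPM. Its log2 ratio stayed above 0 in all 21 alternatives, at 0.19 to 0.69. Among those called lower, the orphan nuclear receptor gene Nr2f2 stood at 12.7 CPM (11.7 to 13.9) against 37.0 CPM (36.0 to 38.0), with reads in 19 of 53 and 85 of 178 cells. Its log2 ratio ran from -3.52 in block 1 through -1.45 to -0.10 in block 3. Fezf1, a zinc-finger factor, stood at 2.36 against 13.6 CPM, in 3 and 18 cells.

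Of 10 subpallial and septal factors with at least 5 CPM, 4 had a log2 ratio above 0 and 6 below. Among them, Nkx2-1 showed the contrast that the name of the list would give. It encodes the homeodomain factor of the medial ganglionic eminence and ventral septum, on chr12:56531958-56536908, and was read in 2 of 53 positive cells (3.77%, 0.460 to 13.0) against 30 of 178 negative cells (16.9%). Its level was 3.49 CPM (2.94 to 4.11) against 10.8 CPM (10.2 to 11.4). In blocks 1 and 2 it was read in 0 of 15 and 0 of 20 positive cells, and in 12 of 65 and 11 of 58 negative cells. In block 3 the shares were alike, at 2 of 18 and 7 of 55 cells, and the log2 ratio there was 0.65. It was also higher in positive cells among those with Xist reads, at a log2 ratio of 1.93. The highest cell reached 72.7 CPM among positive and 245 CPM among negative cells.

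The rest of that list was mixed. Of 30 listed factors 21 were in the table and 8 met the minimum, of which 1 was called higher (Foxp4) and 2 lower (Nkx2-1 and Rarb), against 3.75% and 4.82% of all genes. The median log2 ratio over 10 members with at least 5 CPM was -0.24, with -0.72, -0.41 and 0.67 in the blocks. Foxp4 had a log2 ratio of 1.30, which turned to -2.58 without the cells at 100 CPM of Acta2. Dlx2, not called, also went against Nkx2-1, at a log2 ratio of 1.25. It was read in 0 of 15, 2 of 20 and 4 of 18 positive cells by block, and in 2 of 65, 1 of 58 and 4 of 55 negative cells. Six3, a homeobox factor of the septum and striatal progenitors, stood at 22.0 CPM (20.6 to 23.5) against 36.9 CPM (35.8 to 37.9), in 32.1% and 42.7% of cells. That difference did not reach 2-fold, and block 1 had a log2 ratio of 0.01. Meis2, a homeobox factor of the striatum, stood at 50.4 against 39.4 CPM. Rarb, a retinoic acid receptor gene, stood at 9.67 against 19.6 CPM, with a log2 ratio of 0.68 in block 3. Gsx1, Six6 and Olig2 had 0 reads in both sets.

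**Figure D3:**
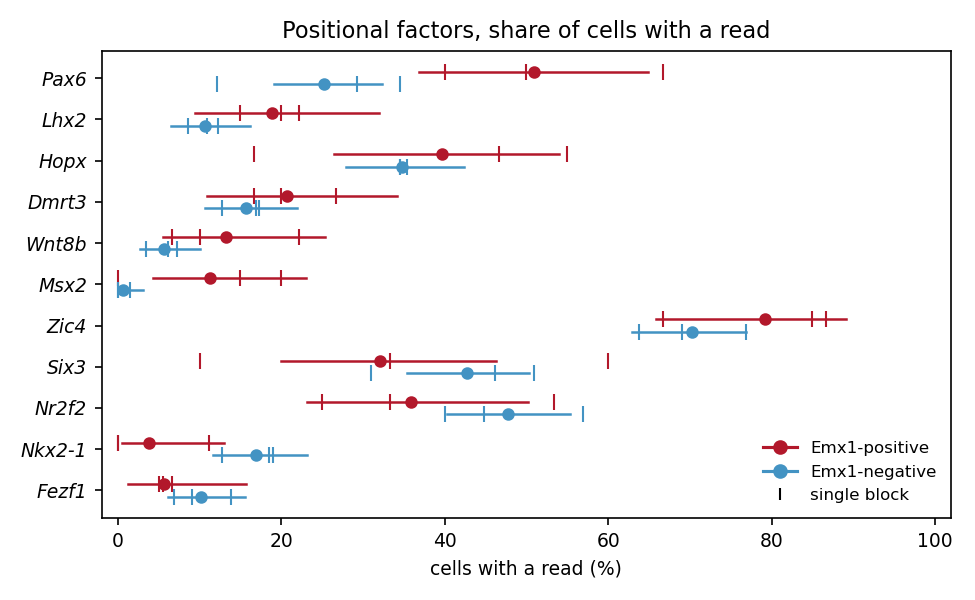
Share of cells with a read for 11 patterning factors in Emx1-positive (red) and Emx1-negative (blue) cells, with exact Clopper-Pearson 95% intervals as bars and single blocks of wells as ticks. Pax6 stands at 50.9% and 25.3%, Msx2 at 11.3% and 0.562%, and Nkx2-1 at 3.77% and 16.9%.

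Of the dorsal midline and cortical hem factors, 10 met the minimum, 1 was called higher (Wnt8b) and 0 lower, beside 3.75% and 4.82% of all genes. Over the 11 members with at least 5 CPM, 9 had a log2 ratio above 0, beside 48.2% of all genes, and the median was 0.32, with 0.83, 0.52 and 0.03 in the blocks. Wnt8b, a Wnt ligand of the hem and medial pallium on chr19:44493472-44514273, stood at 16.6 CPM (15.4 to 17.9) against 4.44 CPM (4.09 to 4.81). It was read in 7 of 53 and 10 of 178 cells, with 1 of 15, 2 of 20 and 4 of 18 positive cells by block. Msx2, a homeobox target of BMP signalling on chr13:53466884-53473074, was under the minimum for a call, at 6.16 CPM (5.42 to 6.97) against 1.27 CPM (1.09 to 1.47). It was read in 6 of 53 positive cells (11.3%, 4.27 to 23.0) and in 1 of 178 negative cells (0.562%). The positive cells with Msx2 were 3 of 15 in block 1 and 3 of 20 in block 2, and 0 of 18 in block 3. Its relative Msx1 stood at 222 and 240 CPM and was read in most cells of both sets. Zic4, a zinc-finger factor of the dorsal midline, stood at 213 against 163 CPM and was lower in the positive cells of block 3, at a log2 ratio of -0.31.

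Signalling genes called at 2-fold were each read in fewer than 50% of cells. In the Wnt pathway 2 of 17 tested genes were higher and 0 lower, beside 3.75% and 4.82% of all genes. Lrp6, the Wnt co-receptor, stood at 42.4 against 19.6 CPM, with log2 ratios of 1.35, 1.31 and 0.91 by block. Daam2, a formin downstream of Dishevelled, stood at 11.9 against 3.16 CPM, and its log2 ratio turned to -4.52 without the cells at 100 CPM of Acta2. In the retinoid pathway 1 of 8 was higher and 2 lower, beside the same 3.75% and 4.82%. Aldh1a1, a retinaldehyde dehydrogenase, stood at 20.3 CPM (19.0 to 21.8) against 3.78 CPM (3.46 to 4.12), in 8 of 53 and 6 of 178 cells, and exceeded 2-fold in all 21 alternatives. The retinoid receptor genes Rarg and Rxra were lower, at 3.58 against 15.3 CPM and 11.7 against 27.2 CPM.

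Contact guidance genes held the highest ratio among the listed genes. The receptor tyrosine kinase gene Ephb3 stood at 19.96 CPM (18.6 to 21.4) against 1.89 CPM (1.67 to 2.14), 10.5-fold higher, though in only 6 of 53 and 4 of 178 cells. The ligand gene Efnb2 stood at 24.7 against 5.95 CPM, in 9 and 16 cells, and was lower in block 3, at a log2 ratio of -0.55. These 2 were the calls among 9 tested Eph, ephrin, semaphorin and Slit genes, beside 3.75% of all genes called higher. Cdon, a hedgehog co-receptor, stood at 14.9 against 5.83 CPM, in 12 of 53 and 12 of 178 cells, and was the call among 10 tested FGF and hedgehog genes (3.75% of all genes). Among 10 BMP pathway genes 0 were called, beside 3.75% of all genes higher and 4.82% lower. Of 17 planar polarity and junction genes, Dvl1, a Dishevelled gene, was higher (26.3 against 7.06 CPM) and the cadherin gene Cdh13 lower (8.003 against 17.3 CPM), beside 3.75% and 4.82% of all genes. The log2 ratio of Dvl1 was 0.36 in block 1 and 0.14 in block 3, and in block 2 it stood at 46.3 CPM against 0 reads in negative cells.

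The few calls in the glial and immune lists were all lower in positive cells, beside 4.82% of all genes, but the astrocyte list as a whole leaned higher. Of 12 tested SOX and NFI factors, Sox8 was lower, at 1.94 against 11.4 CPM, although 26.4% of cells in both sets had a read. Of 17 astrocyte and neural stem cell markers, Prom1, which encodes the surface protein CD133, was lower at 11.4 against 31.8 CPM. Of those 17, 12 had a log2 ratio above 0 and 5 below, beside 48.2% of all genes above 0. Their median log2 ratio was 0.16, with 0.07, 0.30 and 0.04 in the blocks, and the list summed to 19289 against 16487 CPM. By block the sums were 19982 against 15212, 19888 against 16784 and, in block 3, 17770 against 17986 CPM. In every block 4 of the 17 were above 0 and 1 below, beside 12.2% and 15.2% of all genes. The astrocyte filament gene Gfap stood at 124 against 71.2 CPM and was read in 37.7% and 42.1% of cells. Of 13 interferon and MHC class I genes, 2 were lower, among them the peptide transporter gene Tap1 (9.57 against 20.9 CPM), and 0 were higher. Of 2 tested factors of posterior and hypothalamic position, Fezf1 was the lower call. It is also on the pallial list, so this is the same result as the one given there.

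The genes with the largest ratios that held in every block were mostly not patterning genes. The highest was Tram2, on chr1:20996299-21079229, which encodes a protein of the translocon at the endoplasmic reticulum. It stood at 46.5 CPM (44.5 to 48.7) against 9.46 CPM (8.95 to 10.0), with reads in 23 of 53 and 35 of 178 cells. Per cell it ran from 0 to 340 CPM in positive and from 0 to 213 CPM in negative cells, with a median of 0 in both. Its log2 ratio was 0.93, 3.40 and 2.03 by block. The next were Dhx36, a helicase that unwinds G-quadruplexes (30.5 against 6.32 CPM), Ptgfrn (33.0 against 7.47), Asap2 (22.0 against 4.98) and Syn2, a synapsin gene (22.0 against 5.08). In cells with Xist reads Syn2 was lower, at a log2 ratio of -0.61. Rnf103, Gm9978, Tiam2, Setbp1, Asb7, Ccdc14 and Skida1 completed the 12, at 20.3 to 31.6 CPM in positive and 6.08 to 9.63 CPM in negative cells. Without the cells at 100 CPM of Acta2, Setbp1 and Skida1 turned to log2 ratios of -0.82 and -0.0226. All 12 were drawn from 34 genes that met the naming rule, so their large ratios follow from the choice.

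In the lower direction 83 genes met the rule. Cptp, a ceramide-1-phosphate transfer protein gene, stood at 2.33 against 26.4 CPM, with reads in 8 of 53 and 40 of 178 cells. Ilrun stood at 4.44 against 32.4 CPM and Pld5, a phospholipase D family member, at 5.38 against 33.6 CPM. Pdp1, a mitochondrial pyruvate dehydrogenase phosphatase gene, stood at 4.30 against 25.2 CPM, in 5 and 38 cells. Bin3 had the highest level in negative cells among the 12, at 15.4 CPM (14.3 to 16.7) against 62.7 CPM (61.4 to 64.0), in 24.5% and 44.4% of cells. Eya3, a phosphatase and transcriptional cofactor gene, stood at 5.57 against 21.3 CPM, but its log2 ratio was 0.56 in cells with Xist reads. The others were Klf16, Arl6ip6, Zfp236, 1600012H06Rik, Zfp532 and Zfp652, of which Klf16 and the 3 Zfp genes encode zinc-finger proteins.

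The share of cells with a read, after each cell was thinned to 100000 reads, counts every cell once, whatever its level. It was at least 15 points higher in positive cells for 181 genes (1.83%) and at least 15 points lower for 120 (1.21%), and the direction held in every block for 160 (1.62%) and 100 (1.01%). Rnf128, an E3 ubiquitin ligase gene on chrX:139563316-139673145, had the largest difference among genes with at least 20 CPM and one direction in every block, by which it was picked. It was read in 38 of 53 positive cells (71.7%, 57.7 to 83.2) and 62 of 178 negative cells (34.8%), or 66.0% and 33.1% after thinning. By block the positive share was 10 of 15, 15 of 20 and 13 of 18, and the negative share 21 of 65, 20 of 58 and 21 of 55. Its median per cell was 108 CPM in positive cells, with a highest value of 617 CPM, and 0 in negative cells, with a highest value of 573 CPM. The summed level, 124 CPM (120 to 127) against 71.7 CPM (70.3 to 73.2), did not reach 2-fold.

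Another 11 genes were named for a higher share in positive cells. The naming used shares after thinning, while the shares printed for these genes and for those with a lower share are before thinning. Rnf31, which encodes the catalytic subunit of the linear ubiquitin ligase complex, was read in 50.9% and 27.0% of cells and stood at 69.1 CPM (66.6 to 71.7) against 22.2 CPM (21.4 to 23.0). Its log2 ratio was 1.38, 1.54 and 1.89 by block and exceeded 2-fold in all 21 alternatives. Cnmd on chr14:79637690-79662170, which encodes the cartilage and anti-angiogenic protein chondromodulin, was read in 67.9% and 42.1% of cells, at 273 against 142 CPM. Its median per cell was 174 CPM in positive and 0 CPM in negative cells. Gnaq, a G protein alpha subunit gene, was read in 56.6% and 30.3%, and Adora1, the adenosine A1 receptor gene, in 64.2% and 39.3%. Il17b, a secreted cytokine gene, was read in 54.7% and 30.3% of cells, and its log2 ratio was -0.14 in block 1. Clic6 (of the choroid plexus list), Dydc1, Aga, Tram2, 4930444P10Rik and Sap30bpos completed the 12. Sap30bpos is annotated as antisense, and reads of it and of its partner gene cannot be told apart without strand.

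The largest difference in the other direction was that of Fbln1. Fbln1 on chr15:85205949-85286535, which encodes the extracellular matrix protein fibulin, was read in 24 of 53 positive cells (45.3%, 31.6 to 59.6) and 128 of 178 negative cells (71.9%). Its median per cell was 0 CPM in positive and 84.4 CPM in negative cells, and the highest cells reached 976 and 1036 CPM. Its summed level was 95.6 against 131 CPM, and in block 3 the log2 ratio of that level was 0.44. Gsn, the actin-severing protein gelsolin, was read in 54.7% and 75.8% of cells, at a median of 1.41 and 225 CPM, and its log2 ratio was likewise positive in block 3, at 0.68. Cers2, a ceramide synthase gene, was read in 43.4% and 69.7%. Rcbtb2 was read in 47.2% and 67.4% of cells and had log2 ratios of -0.96, -0.88 and -1.04 by block. The others were Gm13127 (annotated as a processed pseudogene, so that its reads may be shared with a parent gene), Appl2, Zfp523, Taf1, Fbxl13, Bin3, Sqor and Ankrd45.

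**Figure D4:**
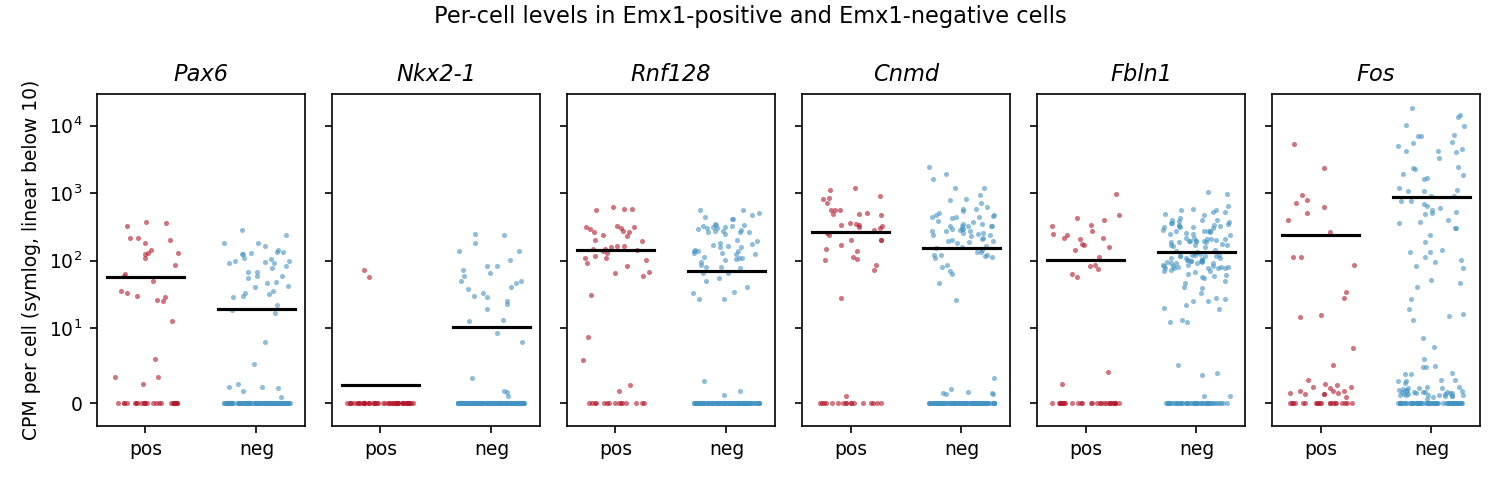
CPM per cell (symlog axis, linear below 10) of 6 genes in the 53 Emx1-positive (pos) and 178 Emx1-negative (neg) cells, with 1 point per cell and a bar at the mean over cells. The medians of Rnf128 are 108 and 0 CPM and those of Fbln1 are 0 and 84.4 CPM, while the ranges of the sets overlap for every gene shown.

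Immediate early genes, which neurons and glia switch on within minutes of stimulation and which tissue dissociation can also induce, were lower in Emx1-positive cells. Of 15 tested members 9 were called lower and 0 higher, against 4.82% of all genes, and all 18 members with at least 5 CPM had a log2 ratio below 0. In every block 12 of the 18 were below 0, beside 15.2% of all genes. Their median was -1.22, with -0.96, -1.02 and -1.94 in the blocks. Summed over 20 members in the table, they reached 1082 against 2489 CPM. These genes vary together between cells, so the members are not independent of each other.

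Per cell, the sum over the list ran from 2.03 through a median of 351 to 10976 CPM in positive cells, and from 0 through a median of 437 to 28459 CPM in negative cells. The upper quartiles were 721 and 1190 CPM, so the negative cells were higher at the middle and at the top of the range. Fos, an AP-1 transcription factor gene on chr12:85473890-85477273, stood at 344 CPM (338 to 349) against 944 CPM (939 to 949), yet it was read in 62.3% and 59.6% of cells. Its median per cell was 1.58 and 1.47 CPM, and its highest cells reached 5435 and 18301 CPM. Cells with at least 1000 CPM of the list in sum were 9 of 53 positive (17.0%) and 46 of 178 negative cells (25.8%). Without those cells, which the list's own level had marked, the median log2 ratio of the list was 0.095, and Fos, Fosb, Junb, Egr1 and Socs3 had ratios above 0. Junb stood at 59.6 against 181 CPM and Egr1 at 103 against 230 CPM before that removal. The part of cell handling in this difference was not tested.

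**Figure D5:**
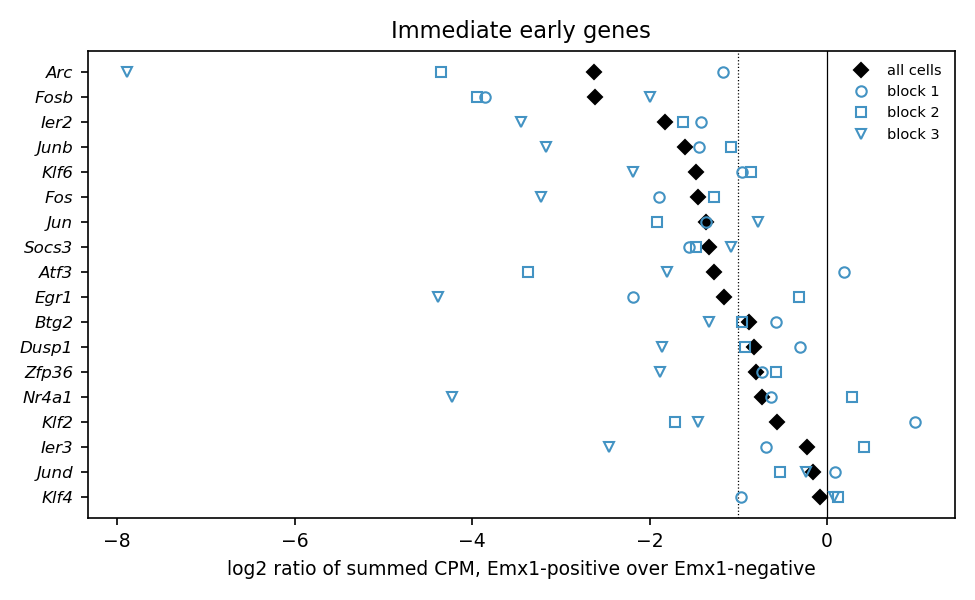
Log2 ratio of summed CPM, Emx1-positive over Emx1-negative cells, for 18 immediate early genes in all cells (diamonds) and in each block of wells (open symbols), with a dotted line at 2-fold lower. All 18 diamonds lie below 0, with a median of -1.22. A block in which a set had 0 reads was given 3 reads, so such points are bounds.

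In the third ventricle 19 of 245 cells (7.76%, 4.73 to 11.8) also held at least 5 Emx1 reads, and 225 held 0. The same contrast there called 7.02% of 10131 genes higher and 10.8% lower. Pax6 went the other way, at 20.9 CPM in 19 positive and 37.3 CPM in 225 negative cells. Wnt8b had the same direction as in the lateral ventricle, at 10.5 against 2.49 CPM, with reads in 10.5% and 3.11% of cells. Rnf128 and Aldh1a1 had 0 reads in the 19 positive cells, against 10.1 and 6.81 CPM in negative cells. Of the 12 genes with the largest higher ratios in the lateral ventricle, 10 were tested here and 4 had a ratio above 0, beside 49.7% of all genes. Of the 12 with the largest lower ratios, 11 were tested and 9 had a ratio below 0, beside 5098 of all 10131 tested genes. The genes named by share of cells mostly went the other way. Of those with a higher share, 10 were tested and 3 had a ratio above 0. Of those with a lower share, 12 were tested and 5 had a ratio below 0. The difference between the ventricles was not tested, since each is 1 sample.

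Of the genes next to Emx1, within 500 kb, 10 were in the table and 7 met the minimum. Alms1, a ciliary basal body gene, was the 1 call, at 11.8 against 5.87 CPM, beside 3.75% of all genes called higher. Its log2 ratio of 1.006 lies at the edge of the 2-fold rule, and its level is near the 10 CPM minimum. Sfxn5, the nearest gene downstream, stood at 485 and 502 CPM.

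Homeodomain proteins, the class to which Emx1 belongs, bind sites with a TAAT core. The letters TAATTA, which read the same on both strands, were looked for in promoters from 250 bases before to 50 bases after each start site (RefSeq, GRCm38.p6). They were found in 1738 of 32851 promoters (5.29%). Of 10 promoters of the genes with the largest higher ratios 1 held them, and of 7 promoters of those with the largest lower ratios 0 did. For the genes named by share, 0 of 8 and 0 of 17 promoters held them, and for the pallial list 1 of 21. Of the subpallial and septal list 2 of 13 held them, in Sp8 and Foxp1. Of the dorsal midline list 4 of 11 promoters held them, those of Wnt8b and Msx2 and 2 of Otx2, whose level was lower in positive cells (108 against 129 CPM). Windows of 30 bases around the match are shown for the 2 midline genes with the highest ratio and for the match among the top genes, 5′ to 3′ on the gene's strand with TAATTA in capitals. They lie at chr19:44493424-44493453 (plus strand), chr13:53472950-53472979 (minus strand) and chr3:62507209-62507238 (minus strand).
Wnt8b: agggaacaacttTAATTAagtagataatct
Msx2: tgactgctcctgTAATTAactcctaattta
Dhx36: ggtttaacaaagTAATTAaaattcactcaa
These letters are a match to a motif and not a measured binding site.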

How the data were processed

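The submitters' processing notes name STAR 2.3.1o, Seurat 3 and mm10 without their roles. How reads were counted, and on which annotation, is not given in the sources used here. The authors deposited raw whole-number counts for every gene in every cell, which were used for all results, and a table of log2 values, which equalled log2 of the count over a size factor plus 1 within 0.01 for 100% of the deposited values and served as an alternative. Columns named Forebrain were matched to the lateral ventricle by anatomy and the titles of the remaining samples, and 0 columns were left unmapped. Of 16347 gene names, 16027 matched GENCODE vM21 on GRCm38. No cell name and no cell's values occurred more than once.

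Cells with at least 5 Emx1 reads were set against cells with 0. Counts were summed per set and scaled to CPM, a set with 0 reads being given 3 reads for a ratio. No test was run, because 1 sample held both sets and cells are not replicates. The blocks are runs of 96 consecutive cell numbers, taken to follow the wells of the title, and can differ in animals as well as plates. Genes were named as the 12 largest ratios per direction among called genes with at least 20 CPM and reads in 20% of cells in the higher set, at least 1.5-fold in every block and at least 2-fold without the highest cell. Also named were the positional factors with at least 5 CPM and the called members of the other lists. Naming by share of cells was added after values were seen, as were Pax6 and Lhx2 as pairs for co-detection and the neighbours of Emx1. Some list members are not reported here. The members and the 23 lists were chosen with earlier results of these data known. The script that makes the calls was tested on simulated data, which says nothing of replicate spread. No doublet caller was run, and removal of the 2% of cells richest in genes was an alternative. Tools were numpy 2.4.6, pandas 2.3.3, scipy 1.17.1, matplotlib 3.10.9, R 4.3.3 and edgeR 4.0.16, the last for its TMM scaling factors.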

Additional observations from a re-analysis of the deposited data

Results flagged for a closer look

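The 6 genes below, named in the lateral ventricle, passed 2-fold in the other direction among third-ventricle cells. In the lateral ventricle 68 reported genes had a ratio of at least 2-fold. The third-ventricle contrast, with 19 positive cells, called 7.02% of all tested genes higher and 10.8% lower. The difference between the ventricles was not tested. Tram2, higher in the Emx1-positive cells of the lateral ventricle, had a log2 ratio of -2.36 in the third ventricle, where it stood at 5.61 against 28.9 CPM. Asb7 had -2.16 there, at 4.08 against 18.3 CPM. Dvl1 had 0 reads in the 19 positive third-ventricle cells, so its log2 ratio of -6.20 is a bound set by 3 reads over the group. Eya3, Prom1 and Tap1, lower in the lateral ventricle, had log2 ratios of 1.74, 1.02 and 1.07.

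Emx1 itself was read outside the lateral ventricle. At least 5 reads were found in 7.76% of third-ventricle cells and in 7 of 547 Foxj1 line midbrain cells (1.28%, 0.516 to 2.62), with up to 323 reads in a midbrain cell. In the spinal cord 2 of 114 cells did (1.75%, 0.213 to 6.19), with up to 331 reads. The Nkx2-2 line midbrain had 1 such cell of 327.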

How the results depend on the processing

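No paired analysis was possible because both sets came from 1 sample. The 371 higher and 477 lower calls became 1286 and 2248 without a filter on low values, 31 and 40 at 50 CPM and 20% of cells, 215 and 840 without the highest cell of each gene, and 656 and 932 in cells at or above the median depth. Subsets of the cells had more calls. Within blocks 1, 2 and 3 they were 1018, 1396 and 931 higher and 1273, 1257 and 1261 lower. They were 617 and 806 without block 1, 618 and 832 without block 3, and 1040 and 1573 without cells at 100 CPM of Acta2. In cells with Y-linked reads they were 1000 and 1447, and in cells with Xist reads 957 and 1180. These subsets differ in wells, sex reads or Acta2 as well as in cell number, and the part of each was not tested. The pallial median (0.21) was -0.19 in block 1, -0.42 without the Acta2 cells, -0.12 without block 2 and -0.064 without the highest cell of each gene. The subpallial and septal median (-0.24) was 0.67 in block 3. Without cells at 1000 CPM of immediate early genes, an alternative chosen after seeing the data, that list's median was 0.095, Fos 0.31, Fosb 0.37, Junb 0.22, Socs3 0.73 and Egr1 0.89.

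Other log2 ratios past 2-fold that reversed were, in block 1, Atf3 0.19, Dlx2 -3.48, Dmrta2 -0.10 and Il17b -0.14; in block 2, Rxra 0.077; in block 3, Efnb2 -0.55, Hopx -0.091, Nkx2-1 0.65 and Rarb 0.68; and without block 2, Dmrta2 -0.0865. Without the Acta2 cells they were Daam2 -4.52, Egr1 0.077, Foxp4 -2.58, Lhx2 -5.07, Setbp1 -0.82 and Skida1 -0.0226. In cells with Xist reads they were Atf3 0.039, Dlx2 -5.16, Eya3 0.56, Foxp4 -0.76, Nkx2-1 1.93 and Syn2 -0.61, and with Y-linked reads Cdh13 0.25. The cause was not tested. Of 68 reported genes with a ratio of at least 2-fold, 46 kept their sign in all 21 alternatives. Of 36 reported genes under 2-fold, 27 took both signs, among them Cers2, Clic6, Aga, Fbxl13, Fbln1, Gsn and Lmo3. Scaling by TMM or median of ratios gave 403 and 402 higher calls. With 53 cells, a gene read in few of them is set by single cells.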
